A study of Arabidopsis thaliana with 12 samples.

Results

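The 36 genes described here are encoded by the chloroplast genome of Arabidopsis thaliana and make proteins other than photosystem, cytochrome b6f and ATP synthase subunits or the large subunit of Rubisco. They were taken as every probe set that lists 1 gene, with a chloroplast locus tag, whose symbol does not start with psa, psb, pet or atp and is not rbcL. They are 36 of the 69 chloroplast probe sets, and of the 13513 probe sets in all, that list 1 gene. There are 10 ndh genes, 8 rps genes, 7 rpl genes, 4 rpo genes, 2 ycf genes, and ccsA, matK, accD, clpP and cemA. A further 8 chloroplast probe sets list several genes and are not used here.

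The ndh genes encode subunits of the plastid NADH dehydrogenase-like complex, which returns electrons to plastoquinone during cyclic electron flow around photosystem I. The rps and rpl genes encode proteins of the small and large subunit of the plastid ribosome, and the rpo genes encode the core of the plastid-encoded RNA polymerase. Plastid genes are read both by that enzyme and by a phage-type polymerase encoded in the nucleus. In the textbook scheme, class I genes depend on the plastid-encoded polymerase, class II genes have promoters for both enzymes, and class III genes depend on the nuclear-encoded one.

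Total RNA from light-grown 7-day-old seedlings was hybridised to 12 Affymetrix ATH1 arrays in 4 groups of 3. The groups were arf2-6 seedlings given 5 µM IAA, the auxin indole-3-acetic acid, for 2 h; arf2-6 seedlings given the ethanol control; Columbia wild-type (WT) seedlings given the same IAA; and WT seedlings given ethanol. All were grown in shaken liquid Murashige and Skoog medium with 1.5% sucrose in a cycle of 16 h light and 8 h dark, and treated at 24 °C. The arf2-6 line carries a mutant allele of ARF2, an auxin response factor that binds DNA at auxin-responsive promoters; its lesion is not described in the labels, no further allele or transgene is named for either line, and no probe set is annotated with ARF2 alone, so the targeted gene gives no check of the labels.

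The deposited values are log2 signals with a lowest value of 5.64, which stands for a signal of 50 and gives only an upper bound. The arrays had medians of 6.16 to 6.22. On each, 12914 to 13075 of the 22746 probe sets that are not controls lay above the lowest value. The sources used here do not say how the RNA was primed for labelling, and chloroplast transcripts mostly lack stable poly(A) tails, so the levels depend on a step that is not described. The labels number the replicates but do not say that they came from separate cultures, so the p-values cover only the spread among the arrays, which may be technical. In RNA from seedlings, fewer cells of a type and less RNA per cell cannot be told apart. The titles of the WT samples carry a tag, A2, that those of arf2-6 lack; its meaning is not stated, and the tag and the genotype cannot be told apart.

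Some arrays stood apart within their groups. The third arf2-6 array with IAA was the highest of its group for 34 of the 35 tested genes, and the third arf2-6 control array for 29 of 35. The second WT array was the highest of its group for 19 of 35 genes with IAA and for 22 of 35 in control. Of the 6 WT arrays, the first with IAA was the lowest for 21 of 35 genes. arf2-6 control array 2 and WT control array 3 deviated together from their group means over all tested probe sets (Pearson correlation 0.63 across probe sets, a description, since probe sets are not independent replicates); results without this pair are given below. The plot of every gene on every array shows these differences.

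**Figure D1:**
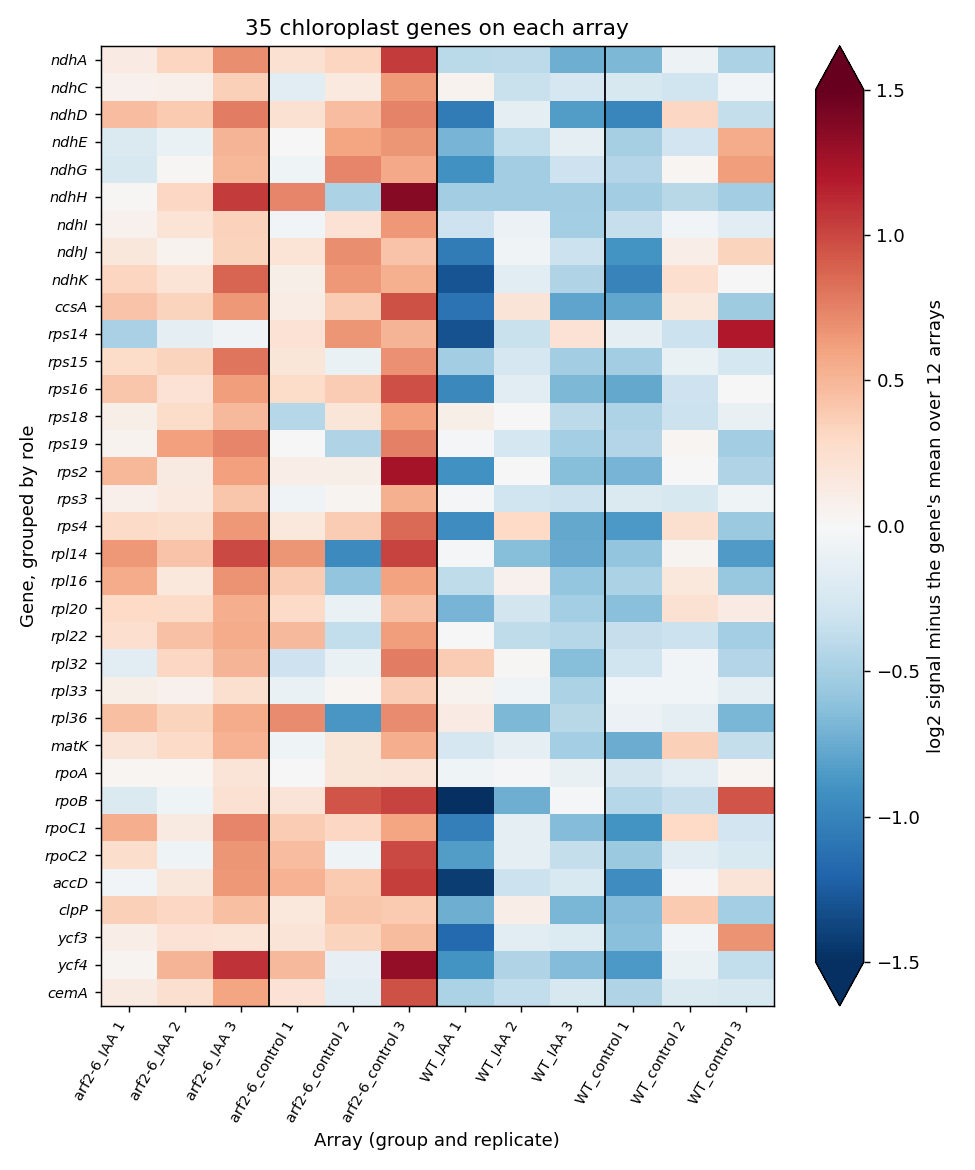
Log2 signal of each of the 35 tested chloroplast genes (rows, grouped by role) on each of the 12 arrays (columns, by group and replicate) minus the gene's mean over the 12 arrays. The 6 arf2-6 columns are mostly red (above the gene's mean) and the 6 WT columns mostly blue; the third arf2-6 array of each treatment is the reddest of its group.

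The first comparison asked whether these genes differ between arf2-6 and WT seedlings, averaged over both treatments. In arf2-6, 19 of the 35 tested genes rose and none fell, among them ycf4 (2.15-fold) and ndhD (2.03-fold). Of all 14215 probe sets tested, 7.15% were called higher and 8.72% lower (limma, adjusted p below 0.05). The difference was positive for 35 of 35 genes, against 52.4% of all probe sets tested, and ranged on the log2 scale between 0.21 for rpoA and 1.104 for ycf4. The genes lie on 1 genome, many in shared clusters, and moved together from array to array. The 35 are therefore not independent observations. The median of the 35 differences was 0.66, against 0.01 over all probe sets tested. Without adjustment, 33 of the 35 genes had p below 0.05, against 30.3% of all probe sets. The gene ndhF, for a membrane-arm subunit of the NDH complex, never exceeded the lowest value and was not tested.

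For 7 genes (ndhA, rps16, rps15, ndhI, cemA, rpoC2 and rps2) all 6 arf2-6 arrays lay above all 6 WT arrays, against 1.94% of all probe sets tested. The calls depended on single arrays. Between 7 and 22 genes were called when 1 array was left out, with 7 without arf2-6 IAA array 3, 11 without arf2-6 control array 3, 11 without WT IAA array 1, 12 without WT IAA array 3 and 9 without WT control array 1. The share of all probe sets called in either direction moved as well. It was 15.9% with all arrays and ran between 9.86% and 21.4% when 1 array was left out, with 10.2% without arf2-6 IAA array 3. The calls of ndhA, rps16, rps15, ndhD, ycf4, rpoC1 and rpl22 were kept with each of the 12 arrays left out in turn. Each of the other 12 was lost without arf2-6 IAA array 3, with adjusted p values of 0.0536 to 0.0939 there. Without arf2-6 control array 2 and WT control array 3, 20 genes were called, 15 of them shared with the 19; ccsA, clpP, rps4 and ndhK were the 4 lost.

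**Figure D2:**
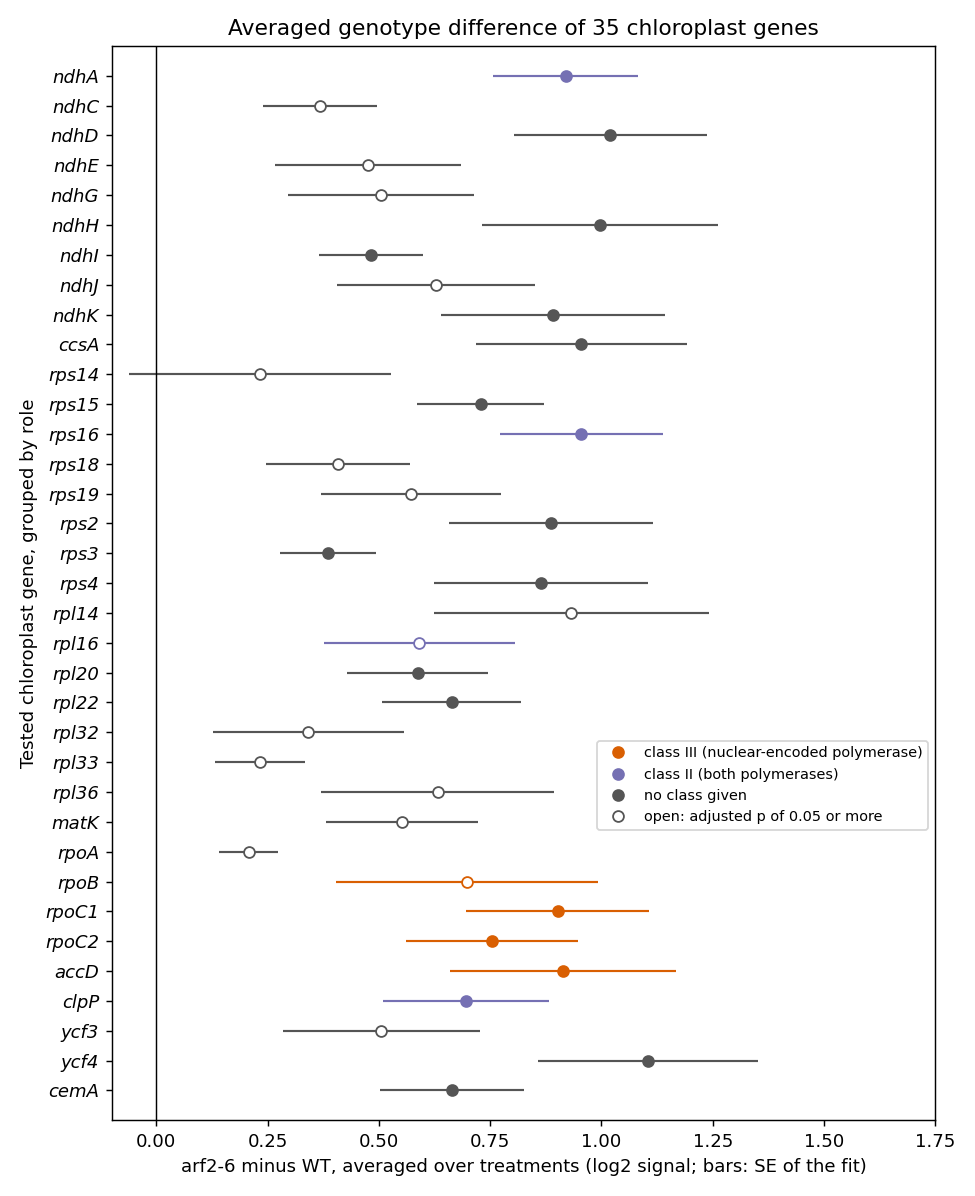
Difference of arf2-6 minus WT, averaged over IAA and control, for the 35 tested chloroplast genes (log2 signal; bars are the SE of the fit on 12 arrays). Filled points mark the 19 genes called at an adjusted p below 0.05 and colours mark the polymerase class; every point lies to the right of 0, between 0.21 and 1.104.

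Of the 9 tested ndh genes, 5 rose in arf2-6 (ndhA, ndhD, ndhH, ndhI and ndhK), and the median difference over the 9 was 0.63. ndhA, encoding a subunit of the membrane arm, had log2 signals of 9.46, 9.66 and 10.04 on the arf2-6 IAA arrays and 9.57, 9.66 and 10.39 on the arf2-6 control arrays. In WT, ndhA had 8.93, 8.95 and 8.61 with IAA and 8.66, 9.26 and 8.86 in control. For ndhA, the lowest arf2-6 array lay above the highest WT array, and the averaged difference was 0.92 on the log2 scale (SE 0.16, 1.89-fold, adjusted p = 0.00461).

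ndhD, encoding a proton-pumping subunit of the membrane arm, had log2 signals of 10.42, 10.34 and 10.72 on the arf2-6 IAA arrays and 10.18, 10.42 and 10.70 on the arf2-6 control arrays. In WT, ndhD had 8.90, 9.81 and 9.11 with IAA and 8.97, 10.26 and 9.60 in control. The groups overlapped for ndhD because the second WT control array reached the level of the arf2-6 arrays, while the other WT arrays lay below all of them. Averaged over treatments, ndhD differed by 1.02 (SE 0.22, adjusted p = 0.0104).

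ndhI, encoding an iron-sulphur subunit of the connecting arm, had log2 signals of 11.64, 11.78 and 11.91 on the arf2-6 IAA arrays and 11.53, 11.79 and 12.22 on the arf2-6 control arrays. In WT, ndhI had 11.26, 11.48 and 11.06 with IAA and 11.23, 11.53 and 11.41 in control. The ndhI groups did not overlap, and the averaged difference was 0.48 on the log2 scale (SE 0.12, 1.40-fold, adjusted p = 0.0184). This was among the smaller differences that passed the test.

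ndhH, encoding another subunit of the connecting arm, had log2 signals of 6.17, 6.47 and 7.20 on the arf2-6 IAA arrays and 6.89, 5.68 and 7.52 on the arf2-6 control arrays. In WT, ndhH had 5.64, 5.64 and 5.64 with IAA and 5.64, 5.74 and 5.64 in control. For ndhH, 5 of the 6 WT arrays stood at the lowest value, so the averaged difference of 1.00 (SE 0.27, adjusted p = 0.0273) is set against the floor, and the second arf2-6 control array lay just below the second WT control array. The ndhH call was lost when any 1 of 8 arrays was left out. With IAA, where all 3 WT arrays were at the lowest value, ndhH was at least 1.96-fold higher in arf2-6 (adjusted p = 0.139, not called).

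ndhK, encoding an iron-sulphur subunit of the connecting arm, averaged 7.79 ± 0.36 in arf2-6 with IAA, 7.75 ± 0.30 in arf2-6 controls, 6.69 ± 0.59 in WT with IAA and 7.07 ± 0.67 in WT controls (log2 signal, SD, n = 3 each). Its averaged difference was 0.89 on the log2 scale (SE 0.25, 1.85-fold, adjusted p = 0.0347), and the groups overlapped because the lowest arf2-6 value, 7.42, lay below the highest WT value, 7.58. The remaining tested subunits, ndhC, ndhE, ndhG and ndhJ, did not pass the test, with averaged differences of 0.37 for ndhC, 0.48 for ndhE, 0.50 for ndhG and 0.63 for ndhJ. ndhC, ndhK and ndhJ are transcribed as one cluster and ndhD, ndhE, ndhG, ndhI, ndhA and ndhH lie in another, by textbook maps. In the ndhD-to-ndhH cluster, 4 of 6 genes were called with a median difference of 0.71, and in the ndhC-to-ndhJ cluster 1 of 3 was called with a median of 0.63.

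ccsA, whose product is needed to attach haem to plastid c-type cytochromes, had log2 signals of 10.91, 10.82 and 11.13 on the arf2-6 IAA arrays and 10.59, 10.86 and 11.44 on the arf2-6 control arrays. In WT, ccsA had 9.37, 10.68 and 9.69 with IAA and 9.70, 10.64 and 9.95 in control. For ccsA, the second WT array of each treatment stood above the other WT arrays and just above the lowest arf2-6 control array. The averaged difference was 0.95 on the log2 scale (SE 0.24, 1.94-fold, adjusted p = 0.0204), and this call was lost without any 1 of 3 arrays.

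Among the ribosomal protein genes, 5 of 8 rps genes and 2 of 7 rpl genes rose in arf2-6, and none fell. The median difference was 0.65 over the rps genes and 0.59 over the rpl genes. rps16, encoding a small-subunit protein, had log2 signals of 7.59, 7.39 and 7.81 on the arf2-6 IAA arrays and 7.45, 7.56 and 8.14 on the arf2-6 control arrays. In WT, rps16 had 6.21, 7.02 and 6.50 with IAA and 6.41, 6.87 and 7.19 in control. All 6 arf2-6 arrays lay above all WT arrays for rps16, and the averaged difference was 0.95 on the log2 scale (SE 0.18, 1.94-fold, adjusted p = 0.00664).

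rps15, encoding another small-subunit protein, had log2 signals of 6.44, 6.50 and 6.97 on the arf2-6 IAA arrays and 6.35, 6.07 and 6.85 on the arf2-6 control arrays. In WT, rps15 had 5.64, 5.92 and 5.65 with IAA and 5.64, 6.07 and 5.90 in control. All 6 arf2-6 arrays lay above all WT arrays for rps15, although the second control arrays of both genotypes round to 6.07. The averaged difference was 0.73 on the log2 scale (SE 0.14, 1.66-fold, adjusted p = 0.00726), with 2 WT arrays at the lowest value.

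rps2, encoding a further protein of the small subunit, had log2 signals of 9.63, 9.27 and 9.75 on the arf2-6 IAA arrays and 9.24, 9.22 and 10.38 on the arf2-6 control arrays. In WT, rps2 had 8.23, 9.14 and 8.50 with IAA and 8.44, 9.14 and 8.69 in control. The lowest arf2-6 value was only slightly above the highest WT value, and the averaged difference was 0.89 on the log2 scale (SE 0.23, 1.85-fold, adjusted p = 0.024). This call was lost without any 1 of 5 arrays.

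rps4, whose product binds the small-subunit ribosomal RNA early in assembly, averaged 10.60 ± 0.21 in arf2-6 with IAA, 10.65 ± 0.35 in arf2-6 controls, 9.73 ± 0.67 in WT with IAA and 9.80 ± 0.57 in WT controls (log2 signal, SD, n = 3 each). The averaged difference of rps4 was 0.86 on the log2 scale (SE 0.24, 1.82-fold, adjusted p = 0.0323), and its second WT arrays (10.49 with IAA and 10.43 in control) lay within the arf2-6 range. rps3, encoding a protein of the same subunit, averaged 10.86 ± 0.18 in arf2-6 with IAA, 10.82 ± 0.32 in arf2-6 controls, 10.44 ± 0.17 in WT with IAA and 10.47 ± 0.09 in WT controls (log2 signal, SD, n = 3 each). Its difference was small, 0.39 on the log2 scale (SE 0.11, 1.31-fold, adjusted p = 0.0331), and the highest WT value overlapped the lowest arf2-6 value. The rps3 call was lost without any 1 of 7 arrays and that of rps4 without any 1 of 8.

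rpl22, encoding a large-subunit protein, had log2 signals of 10.96, 11.14 and 11.26 on the arf2-6 IAA arrays and 11.19, 10.33 and 11.33 on the arf2-6 control arrays. In WT, rpl22 had 10.70, 10.32 and 10.27 with IAA and 10.36, 10.38 and 10.19 in control. Only arf2-6 control array 2 lay within the WT range for rpl22, and the averaged difference was 0.66 on the log2 scale (SE 0.16, 1.58-fold, adjusted p = 0.0162). rpl20, encoding a protein of the same subunit, averaged 8.03 ± 0.14 in arf2-6 with IAA, 7.86 ± 0.28 in arf2-6 controls, 7.15 ± 0.21 in WT with IAA and 7.56 ± 0.47 in WT controls (log2 signal, SD, n = 3 each). The averaged difference of rpl20 was 0.59 on the log2 scale (SE 0.16, 1.50-fold, adjusted p = 0.0282), with WT control arrays 2 and 3 inside the arf2-6 range.

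The rpl gene with the largest averaged difference, rpl14, encoding a protein of the large subunit, did not pass the test. It had log2 signals of 9.07, 8.84 and 9.41 on the arf2-6 IAA arrays and 9.08, 7.46 and 9.43 on the arf2-6 control arrays. In WT, rpl14 had 8.40, 7.77 and 7.66 with IAA and 7.82, 8.46 and 7.57 in control. The second arf2-6 control array was the lowest of all 12 for rpl14, while the other 5 arf2-6 arrays lay above every WT array, and the averaged difference was 0.93 on the log2 scale (SE 0.31, 1.91-fold, adjusted p = 0.0638). Without arf2-6 control array 2 and WT control array 3 it was 1.14 (SE 0.20, adjusted p = 0.00719).

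The same array was also the lowest of the 6 arf2-6 arrays for rps19, rpl22, rpl16 and rpl36, which lie near rpl14, but not for rps3 or rpoA. rps19, rpl22, rps3, rpl16, rpl14, rpl36 and rpoA lie in 1 large cluster by textbook maps. The low array was not particular to this cluster: it was the lowest of the 6 arf2-6 arrays for 12 of the 35 genes. These include ndhH, rps2, ycf4 and cemA, which lie outside the cluster. The mean log2 signal of the cluster genes was 10.36, 10.36 and 10.65 on the arf2-6 IAA arrays and 10.37, 9.63 and 10.69 on the arf2-6 control arrays. In WT it was 10.01, 9.74 and 9.61 with IAA and 9.71, 9.97 and 9.61 in control. The second arf2-6 control array thus lay within the WT range over this cluster, and 2 of its 7 genes, rpl22 and rps3, were called in the averaged comparison. Whether the low array has a technical source was not tested.

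The other ribosomal protein genes did not pass the test. Their averaged differences were 0.57 for rps19, 0.41 for rps18, 0.23 for rps14, 0.59 for rpl16, 0.63 for rpl36, 0.34 for rpl32 and 0.23 for rpl33. rps14, encoding a protein of the small subunit, overlapped widely: the arf2-6 values ran between 6.57 and 7.72 and the WT values between 5.76 and 8.26 (adjusted p = 0.641).

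matK, encoding a maturase that helps splice plastid group II introns, averaged 10.83 ± 0.17 in arf2-6 with IAA, 10.71 ± 0.31 in arf2-6 controls, 10.20 ± 0.19 in WT with IAA and 10.24 ± 0.56 in WT controls (log2 signal, SD, n = 3 each). The averaged difference of matK was 0.55 (SE 0.17, adjusted p = 0.0501), just outside the threshold. It passed without WT control array 2, the highest WT array (0.70, adjusted p = 0.00919). Leaving out the highest WT array must raise the difference, so that pass adds no evidence.

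Of the 4 polymerase subunits, rpoC1 and rpoC2 rose in arf2-6, and rpoA and rpoB did not pass the test. rpoC1, encoding the β′ subunit, had log2 signals of 9.74, 9.33 and 9.92 on the arf2-6 IAA arrays and 9.57, 9.50 and 9.78 on the arf2-6 control arrays. In WT, rpoC1 had 8.16, 9.06 and 8.54 with IAA and 8.29, 9.49 and 8.90 in control. The second WT control array overlapped the arf2-6 arrays for rpoC1, and the averaged difference was 0.90 on the log2 scale (SE 0.21, 1.87-fold, adjusted p = 0.0142).

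rpoC2, encoding the β″ subunit, had log2 signals of 8.07, 7.74 and 8.46 on the arf2-6 IAA arrays and 8.27, 7.74 and 8.79 on the arf2-6 control arrays. In WT, rpoC2 had 6.97, 7.67 and 7.45 with IAA and 7.25, 7.65 and 7.57 in control. For rpoC2 the groups did not overlap, with the second arf2-6 array of each treatment just above the highest WT array, and the averaged difference was 0.75 on the log2 scale (SE 0.19, 1.69-fold, adjusted p = 0.023). The rpoC2 call was lost without any 1 of 6 arrays.

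rpoB, encoding the β subunit, is read with rpoC1 and rpoC2 from 1 promoter by textbook maps. It had log2 signals of 6.93, 7.09 and 7.38 on the arf2-6 IAA arrays and 7.35, 8.09 and 8.16 on the arf2-6 control arrays. In WT, rpoB had 5.64, 6.42 and 7.13 with IAA and 6.72, 6.81 and 8.09 in control. The third WT array of each treatment lay inside the arf2-6 range for rpoB, the WT spread was wide, and the averaged difference was 0.70 on the log2 scale (SE 0.29, 1.62-fold, adjusted p = 0.134). rpoA, encoding the α subunit, had the smallest difference of the 35 genes, 0.21 (SE 0.07, adjusted p = 0.0552), with the arf2-6 arrays between 10.43 and 10.63 and the WT arrays between 10.16 and 10.46.

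Of the remaining genes, accD, clpP, ycf4 and cemA rose in arf2-6 and ycf3 did not pass the test. accD, encoding the carboxyltransferase subunit of acetyl-CoA carboxylase and thus part of fatty acid synthesis, averaged 8.51 ± 0.36 in arf2-6 with IAA, 8.90 ± 0.34 in arf2-6 controls, 7.59 ± 0.67 in WT with IAA and 7.99 ± 0.60 in WT controls (log2 signal, SD, n = 3 each). The averaged difference of accD was 0.91 on the log2 scale (SE 0.25, 1.88-fold, adjusted p = 0.0328), and the call was lost without any 1 of 7 arrays. clpP, encoding a proteolytic subunit of the Clp protease, averaged 11.27 ± 0.07 in arf2-6 with IAA, 11.22 ± 0.14 in arf2-6 controls, 10.46 ± 0.47 in WT with IAA and 10.64 ± 0.56 in WT controls (log2 signal, SD, n = 3 each). The averaged difference of clpP was 0.70 on the log2 scale (SE 0.19, 1.62-fold, adjusted p = 0.028), with the second WT array of each treatment close to or within the arf2-6 range.

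ycf4, encoding an assembly factor of photosystem I, had log2 signals of 9.78, 10.25 and 10.82 on the arf2-6 IAA arrays and 10.22, 9.61 and 11.06 on the arf2-6 control arrays. In WT, ycf4 had 8.84, 9.28 and 9.09 with IAA and 8.88, 9.64 and 9.37 in control. Only the second WT control array exceeded an arf2-6 array (the second control) for ycf4, and the averaged difference of 1.104 on the log2 scale (SE 0.25, 2.15-fold, adjusted p = 0.0132) was the largest measured among the 35, while that of ndhH is limited by the floor. ycf3, encoding the other photosystem I assembly factor, differed by 0.51 (SE 0.22, adjusted p = 0.15), with 1 WT control array at 8.40 above every arf2-6 array.

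cemA, encoding an inner envelope protein linked to CO2 uptake in algae, had log2 signals of 10.35, 10.45 and 10.80 on the arf2-6 IAA arrays and 10.43, 10.05 and 11.17 on the arf2-6 control arrays. In WT, cemA had 9.74, 9.84 and 9.97 with IAA and 9.76, 9.99 and 9.97 in control. The cemA groups were separate by a narrow margin, since the second arf2-6 control array lay just above the highest WT array, and the averaged difference was 0.66 on the log2 scale (SE 0.16, 1.58-fold, adjusted p = 0.0189). ycf4 and cemA lie next to each other in 1 transcribed cluster by textbook maps.

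**Figure D3:**
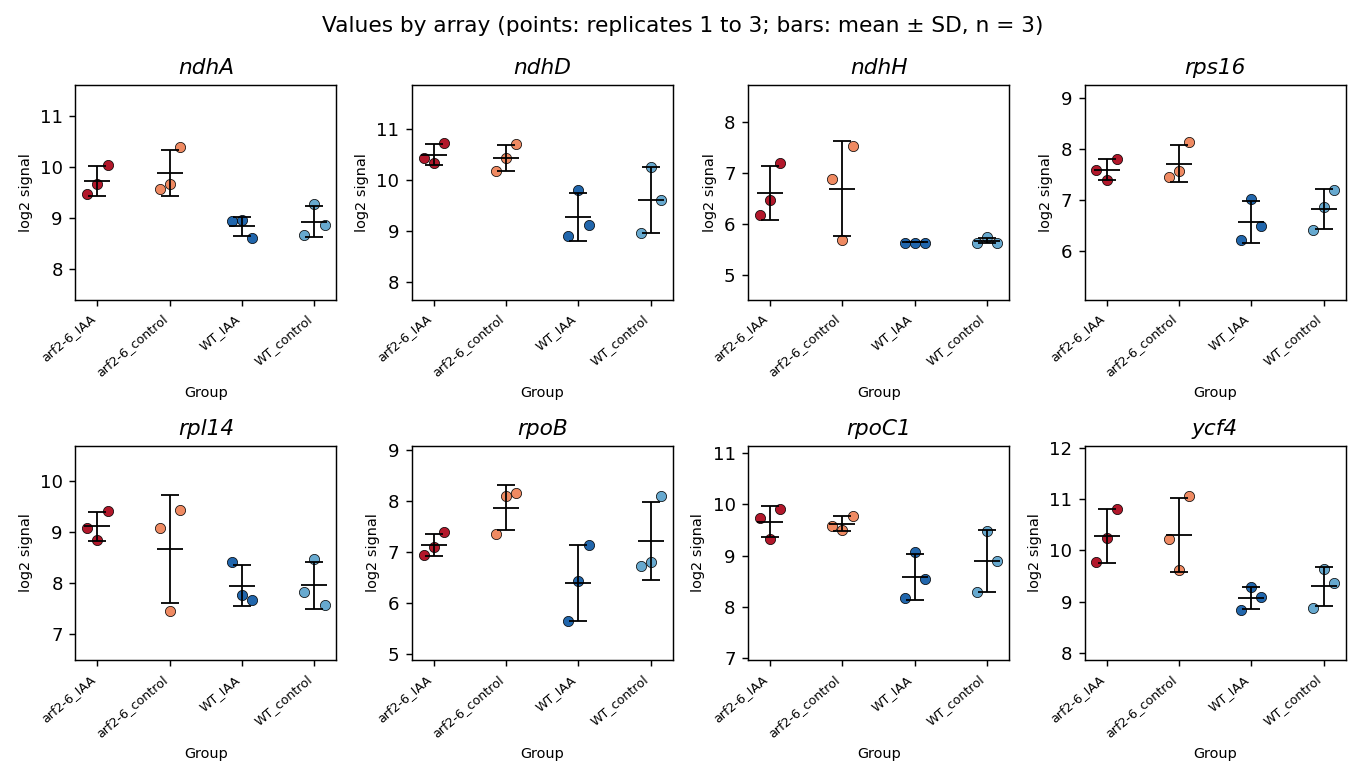
Log2 signal of ndhA, ndhD, ndhH, rps16, rpl14, rpoB, rpoC1 and ycf4 by group, with arf2-6 left of WT and IAA left of control; points are replicates 1 to 3 and bars the mean ± SD (n = 3). The ndhA and rps16 points of arf2-6 all lie above those of WT, the second arf2-6 control array is low for rpl14, and WT ndhH sits at the lowest value on 5 of 6 arrays.

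The same question was asked within each treatment. With IAA, 6 genes were higher in arf2-6 and none lower, against 2.93% of all probe sets called higher. They were rps15 (0.90, SE 0.20, adjusted p = 0.0218), ndhD (1.22, SE 0.31, adjusted p = 0.0334), rps16 (1.02, SE 0.26, adjusted p = 0.0352), rpl20 (0.87, SE 0.22, adjusted p = 0.0356), ndhA (0.89, SE 0.23, adjusted p = 0.0374) and rpoC1 (1.08, SE 0.29, adjusted p = 0.0431). The median of the 35 differences was 0.73, against 0.00 over all probe sets tested. For 30 of 35 genes all 3 arf2-6 arrays lay above all 3 WT arrays, against 17.8% of all probe sets. The 5 genes whose arrays overlapped were ndhE, rps14, rps4, rpl32 and rpoB. Each of the 6 calls was lost when any 1 of 4 to 10 arrays was left out, and the count ran between 0 and 11: none passed without WT IAA array 1, WT IAA array 3 or arf2-6 IAA array 3, 1 without arf2-6 IAA array 1 or 2, 3 without WT IAA array 2, 11 without arf2-6 control array 2 and 10 without arf2-6 control array 3. The share of all probe sets called in either direction fell too. It was 8.79% with all arrays, 6.05% without WT IAA array 1, 6.00% without WT IAA array 3 and 2.46% without arf2-6 IAA array 3. A fit on the 2 IAA groups alone also called 6 genes but lost ndhD, rps16 and rpoC1, sharing 3 with the 6.

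In control seedlings no gene was called by limma, against 0.352% of all probe sets called higher, though 17 of 35 had an unadjusted p below 0.05, all higher in arf2-6, against 2135 of all 14215 probe sets. The median difference was 0.58, against 0.01 over all probe sets tested, and it was positive for 35 of 35 genes against 53.2% of all probe sets. For 10 of 35 all 3 arf2-6 arrays lay above all 3 WT arrays, against 7.23% of all probe sets. The lowest adjusted p was 0.0816, that of ndhA, at a difference of 0.95. Leaving out arf2-6 control array 2 gave 5 calls (cemA, ndhH, rpl14, rpl22 and rpl36), and leaving out both that array and WT control array 3 gave 2 (ndhH and rpl22). The share of all probe sets called in either direction was 0.858% with all arrays, 3.36% without the first array and 3.93% without both.

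The next comparisons asked whether 2 h of IAA changed these genes. In arf2-6, no gene was called by limma in either direction, and none had an unadjusted p below 0.05, while 8.51% of all probe sets were called and 19.4% had such a p. The median difference of IAA minus control was -0.01, against -0.02 over all probe sets tested, and 16 of 35 differences were positive, against 44.1% of all probe sets. In WT, again no gene was called and none had an unadjusted p below 0.05, while 8.4% of all probe sets were called and 18.7% had such a p. The median was -0.13 in WT, against 0.00 over all probe sets tested, and 6 of 35 differences were positive, against 48.7% of all probe sets.

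The largest IAA differences belonged to rpoB and rps14. For rpoB, with the values above, IAA minus control was -0.73 (SE 0.42, adjusted p = 0.382) in arf2-6 and -0.81 (SE 0.42, adjusted p = 0.355) in WT, and the arrays overlapped in both. rps14 had log2 signals of 6.57, 6.91 and 7.01 on the arf2-6 IAA arrays and 7.28, 7.72 and 7.57 on the arf2-6 control arrays. In WT, rps14 had 5.76, 6.73 and 7.28 with IAA and 6.91, 6.74 and 8.26 in control. All 3 arf2-6 IAA arrays lay below all 3 arf2-6 controls for rps14 (-0.69, SE 0.42, adjusted p = 0.42), which held for 15.3% of all probe sets and for no other of the 35 genes; in WT the arrays overlapped (-0.71, SE 0.42, adjusted p = 0.436). For ndhG, the difference in WT was -0.65 (SE 0.30, adjusted p = 0.27), with overlapping arrays.

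Whether IAA acted differently in the 2 genotypes was tested as an interaction. None of the 35 genes was called and none had an unadjusted p below 0.05, while 16 of all 14215 probe sets were called (0.113%) and 3.66% had such a p. Interaction values ran between -0.10 and 0.58 on the log2 scale, with rpl20 highest at 0.58 (SE 0.32, adjusted p = 1.00). The difference between genotypes with IAA was thus not shown to be unlike that in controls, although the first gave 6 calls and the second none.

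The genes were then set side by side by the polymerase that reads them. Among the 36, accD, rpoB, rpoC1 and rpoC2 are class III by the textbook scheme, and ndhA, clpP, rpl16 and rps16 are tested class II genes; 21 psa, psb and rbcL genes stand for class I. In the averaged genotype comparison, 3 of 4 class III genes (accD, rpoC1 and rpoC2) and 3 of 4 class II genes (ndhA, clpP and rps16) were called higher, with medians of 0.83 and 0.81. With atpB and atpI, class II genes outside the 36, class II had 3 of 6 called and a median of 0.64. The class I genes had 12 of 21 called and a median of 0.48, and the 27 genes with no class given had 13 called and a median of 0.59. With rpoA counted in class III, its median was 0.75. These medians describe few genes, of which rpoB, rpoC1 and rpoC2 share a promoter, and the difference between classes was not tested. The classes also differed in signal: the mean over the WT arrays was 7.69 for class III, 8.74 for the tested class II genes of the 36 and 9.69 for class I. Among the 35 genes, the 18 with the higher WT signal had a median difference of 0.60 and the other 17 of 0.73. The part of signal level in the class medians was not tested.

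With IAA, the class III genes had a median difference of -0.28 in arf2-6 and of -0.36 in WT, and none was called. The class II medians were -0.03 in arf2-6 and -0.14 in WT, and the class I medians 0.07 in arf2-6 and -0.06 in WT, again with no gene called. Within class III, rpoB had the differences given above. accD differed by -0.39 (SE 0.36, adjusted p = 0.62) in arf2-6 and by -0.41 (SE 0.36, adjusted p = 0.659) in WT. rpoC1 differed by 0.05 in arf2-6 and -0.31 in WT, and rpoC2 by -0.17 and -0.13.

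**Figure D4:**
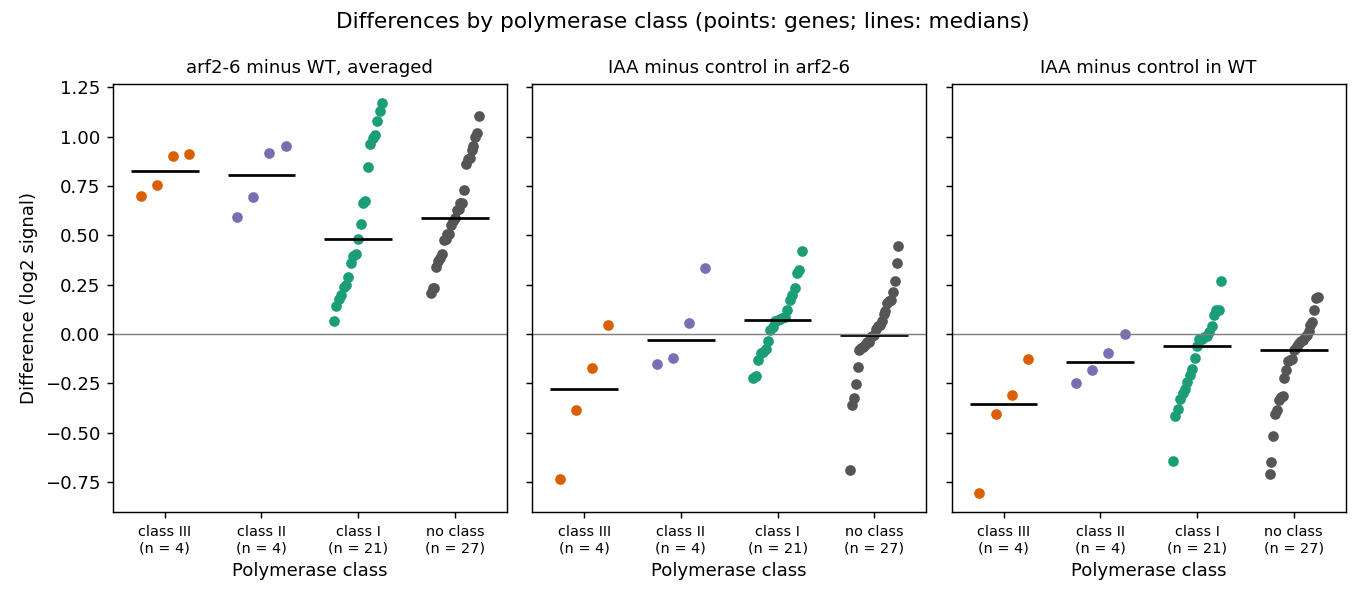
Differences (log2 signal) of class III, class II, class I and unclassed chloroplast genes in 3 comparisons: arf2-6 minus WT averaged over treatments, IAA minus control in arf2-6, and IAA minus control in WT. Points are genes and lines medians; in the first panel the medians are 0.83, 0.81, 0.48 and 0.59, and in the other panels the class III medians lie lowest, at -0.28 and -0.36.

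The nuclear genes that work with these proteins were measured less fully. Of 32 nuclear genes for plastid ribosomal proteins, 8 were tested and 3 rose in arf2-6 in the averaged comparison: AT3G13120 (0.37, adjusted p = 0.00211), AT1G29070 (0.27, adjusted p = 0.00743) and AT2G43030 (0.19, adjusted p = 0.0408), the last lost when any 1 of 9 arrays was left out. The median over the 8 was 0.22. Of 21 nuclear NDH subunits and assembly factors, 3 were tested and none passed; NdhN had the lowest p, with a difference of 0.38 (adjusted p = 0.0729). Of 12 nuclear Clp core and acetyl-CoA carboxylase genes, 2 were tested, and CLPP4, a Clp core subunit, rose by 0.30 (adjusted p = 0.0142).

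None of 6 sigma factors and 12 polymerase-associated proteins was matched to a probe set through the annotation used, which names no gene for 8794 probe sets, so they were not analysed here. Of 3 phage-type polymerase genes only AT5G15700 was matched and tested. It averaged 5.87 on the arf2-6 IAA arrays and stood at the lowest value on all 9 others. It was thus at least 1.17-fold higher there than in arf2-6 controls and than in WT with IAA, close to the lowest value. It passed the filter on low signal only through the arf2-6 IAA arrays, the group where it was higher. The 9 arrays at the lowest value show no spread. For both reasons its p-values are not given, and the difference is a description only.

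Other measures were read for the same arrays. The mean log2 signal of the 35 tested genes was 9.40 ± 0.22 in arf2-6 with IAA, 9.44 ± 0.34 in arf2-6 controls, 8.66 ± 0.19 in WT with IAA and 8.85 ± 0.27 in WT controls (SD, n = 3 each). The 6 arf2-6 arrays lay between 9.21 and 9.82 and the 6 WT arrays between 8.49 and 9.05. Of the 33 photosystem, cytochrome, ATP synthase and rbcL genes, 16 were called higher in arf2-6, with a median difference of 0.47 and 33 of 33 positive. Whether the 36 genes differ more than these was not tested. Of 9 tested mitochondrial probe sets none was called, and their median difference was 0.03. Their mean log2 signal ran between 5.97 and 6.46 in arf2-6 and between 5.95 and 6.35 in WT.

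Nuclear marker genes were read for tissue makeup. Of 16 leaf photosynthesis markers, 3 were matched to a probe set (RCA, which activates Rubisco, and the light-harvesting genes LHCB4.1 and LHCB4.2); none was called, and the median difference was 0.07. Their mean log2 signal ran between 12.17 and 12.35 in arf2-6 and between 12.07 and 12.35 in WT, and none was at the lowest value. Of 6 root and root hair markers, 2 were matched to a probe set, and both fell in arf2-6: EXPA7 by 0.81 (adjusted p = 0.00481) and EXPA18 by 1.22 (adjusted p = 0.00191). Their mean ran between 5.84 and 6.62 in arf2-6 and between 6.76 and 7.72 in WT, and EXPA18 was at the lowest value on 1 arf2-6 array. The part of tissue makeup in the chloroplast differences was not tested.

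RNA length on the arrays was read as the mean 3′ minus 5′ log2 difference of 6 control probe pairs. It ran between 0.42 and 0.49 in arf2-6 with IAA, 0.45 and 0.67 in arf2-6 controls, 0.51 and 0.62 in WT with IAA and 0.41 and 0.59 in WT controls. The highest of all arrays, at 0.67, was arf2-6 control array 2, the array that was low for rpl14. In control seedlings the genotypes overlapped in this measure. With IAA they did not: all arf2-6 arrays lay below all WT arrays. The part of this measure in the chloroplast differences was not tested.

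**Figure D5:**
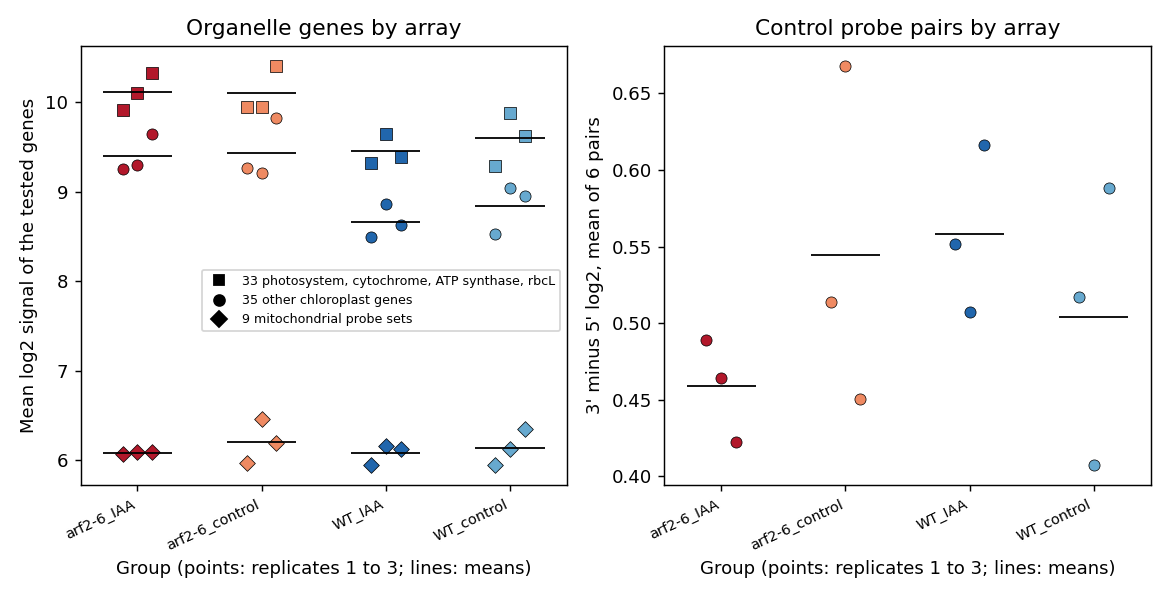
Left, mean log2 signal by array of the 35 tested chloroplast genes, the 33 photosystem, cytochrome, ATP synthase and rbcL genes, and 9 mitochondrial probe sets; right, the mean 3′ minus 5′ log2 difference of 6 control pairs. Points are replicates and lines group means. The chloroplast means of arf2-6 (9.21 to 9.82 for the 35 genes) lie above those of WT (8.49 to 9.05). The mitochondrial means, which lie near the lowest value, overlap between genotypes. The control pairs overlap between genotypes in control seedlings but not with IAA, where arf2-6 lies lower.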

How the data were processed

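Signals of 22810 probe sets on 12 arrays were analysed as the authors deposited them, on a log2 scale with a lowest value of 5.64; the values do not show how they were scaled, and the software, its normalization and the RNA labelling are not given in the sources used here. Probe sets were named through the platform annotation, where 13513 list 1 gene, 503 several and 8794 none, and 13436 of the first matched the RefSeq table of TAIR10.1 by gene ID. The 18 mitochondrial probe sets did not match by locus tag and were matched by symbol. Limma 3.58.1 in R 4.3.3 (lmFit, then eBayes with a variance trend) fitted 1 mean per group over all 12 arrays, leaving 8 residual degrees of freedom. It left out 64 control probe sets and every probe set whose mean did not exceed the value below which the lowest 30% lie. That value was the lowest value itself, so the 8531 probe sets at the lowest value on all arrays were left out and 14215 were tested, two-sided, with Benjamini-Hochberg adjustment over all of them. The fit was tested on simulated data. Each array holds 1 sample and the number of arrays limits the precision. Each probe set was tested alone, and levels of different genes were set side by side only to describe the classes.

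Every gene is accounted for; those called in any comparison are named, with values on all arrays for at least the 12 with the lowest p in the averaged genotype comparison, and the gene with the largest averaged difference in each role. From each nuclear list up to 4 called genes, or the 1 with the lowest p, are named. The genes, the nuclear lists, the marker lists and the polymerase classes were chosen with earlier results of these data known, and the transcribed clusters were written down after these values were seen. Same-numbered arrays of different groups were compared by their deviations from the group means over all tested probe sets. Alternatives were another scaling, filter or variance prior, a replicate block, fits on 2 groups and arrays left out.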

Additional observations from a re-analysis of the deposited data

How the results depend on the processing

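All counts here are of the 35 tested genes called by limma. With no filter on low signal, which adds 8531 probe sets at the lowest value throughout, 6 genes were called in the averaged genotype comparison and 0 with IAA. Over all probe sets then tested, 6.71% and 2.85% were called in either direction, against 15.9% and 8.79% in the main fit. Quantile normalization, centring each array, leaving out the lower 50% by mean signal, dropping the variance trend and fitting only the 2 groups compared kept every count within 1.5 times the reported one, although the last shared only 3 of its 6 genes with the 6 reported with IAA (ndhD, rps16 and rpoC1 were lost). Without arf2-6 control array 2 and WT control array 3, 2 genes were called between genotypes in control and 8 with IAA, 3 of them shared with the 6. Over all probe sets, 3.93% and 14.1% were called there in either direction. Leaving out 1 array gave 7 to 22 calls in the averaged comparison, 0 to 11 with IAA and 0 to 5 in control; the interaction and both IAA comparisons had 0 with each array left out. Same-numbered arrays did not deviate together throughout (7 of 18 pairs correlated above 0.1, range -0.50 to 0.49), and the main fit does not take the numbers as pairs. Between IAA and control arrays of 1 genotype, the correlations for numbers 1 to 3 were 0.29, 0.03 and 0.30 in arf2-6. In WT they were -0.08, 0.31 and 0.49. Whether such arrays share a culture is not stated. The averaged comparison counts them as independent, and its p-values would be too small if they are not. With the replicate block, 25 genes were called in the averaged comparison, 12 between genotypes with IAA and 1 for IAA in WT (ndhG, -0.65, adjusted p = 0.0238). Over all probe sets, 15.8%, 8.43% and 8.31% were called there in either direction. No called gene was reversed, under any alternative run, in the comparison that called it. Small differences of genes not called could change sign when 1 array was left out. For rps14 between genotypes in control (0.22 with all arrays), this happened without WT control array 2. The median averaged difference of the 35 genes ran between 0.57 and 0.79. The floor limits ndhH, rps15 and rpoB, which had WT arrays at the lowest value.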
